A study of Mus musculus with 92 samples.

Results

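Described here are 8 genes of cholesterol efflux and oxysterol signalling across mouse progenitors, monocytes, macrophages and brain cells: Abca1, Abcg1, Nr1h3, Ch25h, Apoc1, Apoc2, Mylip and Lpcat3. They were chosen by name, as the rows of the deposited expression table with these symbols, and all were found: 8 of 29956 named genes.

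Macrophages and microglia take up cholesterol with lipoproteins, dead cells and myelin, and cannot break down its ring. They export it instead, through the transporters Abca1, which loads lipid-poor apolipoproteins, and Abcg1, which loads HDL particles. Oxysterols, oxidized forms of cholesterol, bind the liver X receptors, of which LXR alpha is the product of Nr1h3, and these receptors turn on the transporters together with genes for apolipoproteins, lipid remodelling and a limit on cholesterol uptake. Ch25h encodes the enzyme that makes 25-hydroxycholesterol and is known as an interferon-stimulated gene of macrophages. Apoc1 and Apoc2 encode small apolipoproteins, of which the second is the cofactor of lipoprotein lipase. Mylip encodes a ubiquitin ligase that limits the uptake of cholesterol, and Lpcat3 an enzyme that puts polyunsaturated chains into membrane phospholipids. The name of the set therefore covers 2 exporters, 1 receptor, 1 oxysterol enzyme and 4 genes known as targets of the receptor.

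RNA of mouse myeloid cells was sequenced in 92 libraries of 25 groups, all from mice of the FVB strain or cells derived from them. BM progenitors (lineage-depleted), BM monocytes and BMD macrophages (bone marrow cells after 7 days in M-CSF) came from WT mice, with 3 libraries each. ER-Hoxb8 cells are progenitors from Cas9 het bone marrow, kept immature by an estrogen-dependent Hoxb8 fusion in beta-estradiol and GM-CSF. They were sequenced as progenitors, after 4 days and as macrophages after 7 days in M-CSF (3 libraries each). For the comparison with BMD cells the paper describes 3 biologically independent lines. Which line each library came from was not stated. Microglia-like cells (MLCs) are WT bone marrow cells or ER-Hoxb8 cells that were injected into the brains of newborn Csf1r-/- mice, hosts that lack microglia, and sorted out again (6 libraries each). The genotype label of ER-Hoxb8 MLCs is WT, not Cas9 het, and 3 of these libraries are named GFPHox (replicates 1 to 3) and 3 WTHox (replicates 4 to 6). Microglia came from uninjected WT mice (9 libraries). For the gene edit, Cas9 het ER-Hoxb8 progenitors received guide 1 or guide 2 against Adar or a non-targeting control (NTC), and sorted pools, not clones, were sequenced. Guide 1 progenitors, guide 1 macrophages, NTC progenitors, NTC macrophages and guide 2 progenitors had 3 libraries each and guide 2 macrophages 5. In a further experiment, NTC and guide 1 macrophages grew for 7 days with baricitinib, an inhibitor of Janus kinases, at 0, 0.0006, 0.016, 0.4 or 10 uM as the sample titles give the doses, with 3, 3, 4, 4 and 3 NTC and 3, 3, 3, 3 and 4 guide 1 libraries. The treatment protocol names 0.00064 and 0.16 uM where the titles name 0.0006 and 0.016 uM. Both the edited and the control cells carry Cas9 and a guide. Host pups were injected at 0 to 5 days of age and brains taken 12 to 16 days later unless noted, with microglia from WT mice of matched age. Other ages, and the sex behind each library, were not given in the sources used here.

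Values are log2 CPM (counts as a share of each library's total, scaled between libraries and offset slightly, as deposited). Libraries that share one lowest value, the value of a gene with a count of 0, were scaled together, and the table holds 6 such sets. The lowest value was -4.34 in the progenitor and monocyte set (12 libraries), -3.62 in the set of macrophages, MLCs and microglia (27), -3.43 in the guide 1 set (11), -3.09 for NTC macrophage replicate 2, which stands alone, -3.56 in the guide 2 set (8) and -2.78 in the baricitinib set (33). Comparisons were made only within a set. Depth was 34.4 to 48.9 M counts per library in the first set, 9.03 to 43.5 M in the second, 17.2 to 41.9 M in the guide 1 set, 19.6 M for the lone library, 18.5 to 27.2 M in the guide 2 set and 6.06 to 34.2 M in the baricitinib set. A gene was tested with limma across all genes of a set when its CPM was above 1 in at least 3 libraries, and passed at an adjusted p below 0.05. In the set with brain cells the limit was 6 libraries, except that cultured macrophages were compared in a fit of their own with a limit of 3. Changes are log2 fold changes (log2FC), as means with their SE. The p-values measure only the spread between samples. Per the paper, the baricitinib cultures were separate differentiations within each condition. Separate transductions were not named for the libraries of any guide. The p-values of guide and NTC cells may therefore not cover the spread between separately edited lines. Ch25h was too low to be tested outside the set with brain cells, and Apoc1 too low in the guide 2 set, so that 8, 7 or 6 of the 8 members were tested.

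The promoters of 6 of the 8 members were present in the RefSeq table of build GRCm38.p6 (250 bases before to 50 after the start), with none for Abcg1 and Apoc1. They were searched on both strands for a DR4-type element (GGTNANNNNNGGTCA, in 0.207% of 32851 promoters), a strict direct repeat (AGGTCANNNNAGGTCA, 0.0152%), a sterol regulatory core (TCACCCCAC, 0.551%), an interferon-stimulated response core (GAAANNGAAA, 3.44%) and the letters TATAAA (13.6%). The DR4-type element is the kind of site that liver X receptors are known to bind, and 1 member held it. It lies in the Abca1 promoter on the strand opposite to the gene as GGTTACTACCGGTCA, with the end farther from the start at -67. That promoter is shown, since Abca1 was the member that most clearly separated brain from culture below. Capitals mark the DR4-type match (as its reverse complement) and TATAAA.
Abca1, chr4:53159846-53160145, minus strand: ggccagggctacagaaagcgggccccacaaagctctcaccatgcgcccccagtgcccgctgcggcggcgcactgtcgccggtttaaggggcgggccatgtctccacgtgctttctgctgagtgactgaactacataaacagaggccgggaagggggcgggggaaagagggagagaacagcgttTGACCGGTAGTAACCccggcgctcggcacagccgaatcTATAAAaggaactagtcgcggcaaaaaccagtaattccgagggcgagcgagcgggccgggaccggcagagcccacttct
The Mylip and Ch25h windows held TATAAA only (first base at -32 and -151), and those of Nr1h3, Lpcat3 and Apoc2 held none of the 5 patterns. Binding was not measured.

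Several libraries stood apart over all genes or in their markers. ER-Hoxb8 progenitor replicate 2 resembled the day-4 cells (mean r 0.9618) more than its own group (0.8673), and replicate 3 of the progenitors and of the day-4 cells had lower macrophage markers than the others. BMD macrophage replicate 3 (library name wBM, the others Mac) had far more proliferation markers, led by Top2a (132, 51 and 757 CPM in replicate order), and microglia replicate 8 (named YSWT, as is replicate 9, the others WT) had 56.9% of genes at the lowest value, against 44.1% to 48.0% in the other microglia. ER-Hoxb8 MLC replicate 6 carried monocyte markers, and replicates 1 and 4 were slightly nearer to BMD MLCs (mean r 0.8424 and 0.7922) than to their own group (0.8378 and 0.7872). In the baricitinib experiment, guide 1 replicate 2 at 0.4 uM resembled guide 1 cells at 0.016 uM (mean r 0.9398) more than its own group (0.8895), while replicates 1 and 3 resembled NTC cells.

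Cell labels were checked against marker lists, each summed as CPM. The macrophage list (Csf1r, Emr1, Cd68, Itgam, Mertk, Trem2) summed to 10970, 8320 and 9303 in BMD macrophages and 9505, 7941 and 10810 in ER-Hoxb8 macrophages. In ER-Hoxb8 progenitors the macrophage list summed to 2096, 5528 and 453, so that the 3 libraries of this group differed among themselves. Of the microglia markers, P2ry12 was at 14.03 to 14.84 (median 14.41) log2 CPM in microglia, 8.11 to 11.39 (median 10.72) in BMD MLCs and 4.76 to 10.57 (median 7.19) in ER-Hoxb8 MLCs, and Tmem119 at 9.13 to 13.35 (median 12.10), 7.74 to 10.49 (median 9.88) and 4.13 to 10.21 (median 8.29). Neutrophil markers, led by Ngp, summed to 7312, 4431, 28530, 32940, 32860 and 31110 in BMD MLCs and 759.7, 237, 329.7, 17830, 41010 and 3345 in ER-Hoxb8 MLCs, against 406 to 5847 in microglia. The MLC sorts therefore held neutrophil RNA at levels that varied between libraries, and its part in the results below was not tested. Fewer cells of a type and less RNA per cell cannot be told apart in these bulk samples.

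In bone marrow, the members that passed between monocytes and progenitors were Apoc2, which was higher in monocytes, and Lpcat3, which was lower. The 2 members that passed compare with a background in which 13.8% of 12056 genes tested passed, 7.01% higher and 6.77% lower. Apoc2 was at 2.44, 2.58 and 2.49 log2 CPM in BM progenitors and 4.58, 6.18 and 5.96 in BM monocytes. Every monocyte library was above every progenitor library (log2FC 3.07, SE 0.79, adjusted p = 0.0263). Lpcat3, the phospholipid enzyme, was at 7.39, 7.08 and 7.44 log2 CPM in progenitors and 6.52, 6.18 and 6.33 in monocytes. Here every monocyte library was below every progenitor library (log2FC -0.96, SE 0.27, adjusted p = 0.0389). Neither call held when libraries were left out one at a time: Apoc2 lost it without any 1 of 5 of the 6 libraries and Lpcat3 without any 1 of the 6. Apoc1 was at -1.94, -1.80 and -0.59 log2 CPM in progenitors and 0.70, 1.55 and 0.92 in monocytes, which did not overlap, without passing (adjusted p = 0.172). Abca1, Abcg1, Nr1h3 and Mylip overlapped between the 2 groups.

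ER-Hoxb8 progenitors held more of the receptor gene and of Apoc2 than BM progenitors did. Of the 7 members tested 2 were higher and none lower, where 25.5% of 12056 genes tested passed, 11.3% higher and 14.2% lower. Nr1h3 was at -0.07, 1.47 and 0.70 log2 CPM in BM progenitors and 4.48, 4.80 and 4.28 in ER-Hoxb8 progenitors. All 3 ER-Hoxb8 libraries were above all BM libraries (log2FC 3.82, SE 0.51, adjusted p = 0.000235). Apoc2 was at 8.06, 9.93 and 6.04 log2 CPM in ER-Hoxb8 progenitors, again above every BM progenitor (log2FC 5.51, SE 0.79, adjusted p = 0.000365). Abcg1 was at 6.06, 6.41 and 5.52 log2 CPM in BM progenitors and 10.31, 9.03 and 4.86 in ER-Hoxb8 progenitors. Replicates 1 and 2 were far above the BM cells and replicate 3 below them (log2FC 2.07, SE 1.19, adjusted p = 0.231), and without replicate 3 Abcg1 passed (log2FC 3.67, adjusted p = 0.00546). Apoc1 was at 0.04, 2.69 and -2.80 log2 CPM in ER-Hoxb8 progenitors, and passed without replicate 3 (log2FC 2.81, adjusted p = 0.0371) but had no difference without replicate 2 (0.063, adjusted p = 0.97). Without replicate 1, Abcg1 was at 0.95 (adjusted p = 0.633).

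The remaining members of this comparison did not pass with all libraries. Abca1 was at 1.13, 2.68 and 1.46 log2 CPM in BM progenitors and 2.20, 3.08 and -3.45 in ER-Hoxb8 progenitors, so that replicate 3 stood alone at the bottom. Mylip was at 1.41, 3.07 and 2.61 and 1.11, 3.70 and -1.45 log2 CPM, spread as widely as any difference between the groups. Without replicate 2, Mylip was lower in ER-Hoxb8 progenitors (log2FC -2.54, adjusted p = 0.0371), and without replicate 3 it was at 0.038 (adjusted p = 0.977). Lpcat3 was at 8.17, 7.48 and 8.08 log2 CPM, above every BM progenitor (log2FC 0.61, adjusted p = 0.127), and passed without replicate 2 (log2FC 0.82, adjusted p = 0.0437). Ch25h, not tested in this set, was at -0.11, -3.16 and -0.22 log2 CPM in ER-Hoxb8 progenitors, against -3.80, -4.34 and -3.81 in BM progenitors and -3.17, -4.34 and -3.83 in BM monocytes.

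Among the other lists, most genes of sterol synthesis and uptake were higher in ER-Hoxb8 than in BM progenitors. In the sterol synthesis genes of the SREBP2 program 8 of 11 higher, 0 lower, median 1.85, beside -0.076 over all genes, with Hmgcs1, the first committed enzyme, at a log2FC of 2.59. For sterol uptake, release, storage and transport the count was 7 of 9 higher, 0 lower, median 2.54. The list of receptor partners and further LXR target genes gave 3 of 14 higher, 1 lower, median 0.74, with Apoc4 at 4.35 and Smpdl3a at -5.22. Whether LXR regulates the genes of this list in these mouse cells was not tested. The oxysterol enzymes and receptor gave 3 of 5 higher, 0 lower, median 0.85 and the interferon-stimulated genes 0 of 8 higher, 0 lower, median -0.72. Where several lists stand in 1 sentence, each is given below as genes higher and genes lower of those tested, with the median log2FC in parentheses. For BM monocytes over BM progenitors the LXR list gave 2 and 2 of 14 (0.21), uptake 4 and 0 of 9 (1.40), the oxysterol list 1 and 0 of 5 (1.19), synthesis 1 and 1 of 11 (0.0075) and interferon 1 and 0 of 8 (2.12), beside a median of -0.086 over all genes.

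Between ER-Hoxb8 progenitors and day-4 cells no member passed. With limma, 0% of 12056 genes tested passed, 0% higher and 0% lower, and 1 of 7 members had an unadjusted p below 0.05, as did 1129 genes (9.36%). Abca1 was at 3.51, 2.77 and 0.03 log2 CPM in day-4 cells and Abcg1 at 10.02, 9.21 and 6.47. Nr1h3 was at 5.48, 4.94 and 3.70 log2 CPM, Apoc1 at 2.75, 2.96 and 0.33 and Apoc2 at 9.38, 10.24 and 8.73. Mylip was at 2.94, 3.46 and 1.64 log2 CPM, Lpcat3 at 7.71, 7.38 and 6.80 and Ch25h at -3.71, -4.34 and 0.18. All of these ranges overlapped those of the progenitors. Without progenitor replicate 2, the library that resembled day-4 cells, Apoc1 (log2FC 3.39, adjusted p = 0.0476), Apoc2 (2.40, adjusted p = 0.0345) and Mylip (2.86, adjusted p = 0.0458) were higher at day 4. No gene of the 5 further lists passed with all libraries, and their medians were -0.028 (LXR list), 0.49 (uptake), 0.53 (oxysterol), -0.23 (synthesis) and 1.98 (interferon), beside -0.0091 over all genes.

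**Figure D1:**
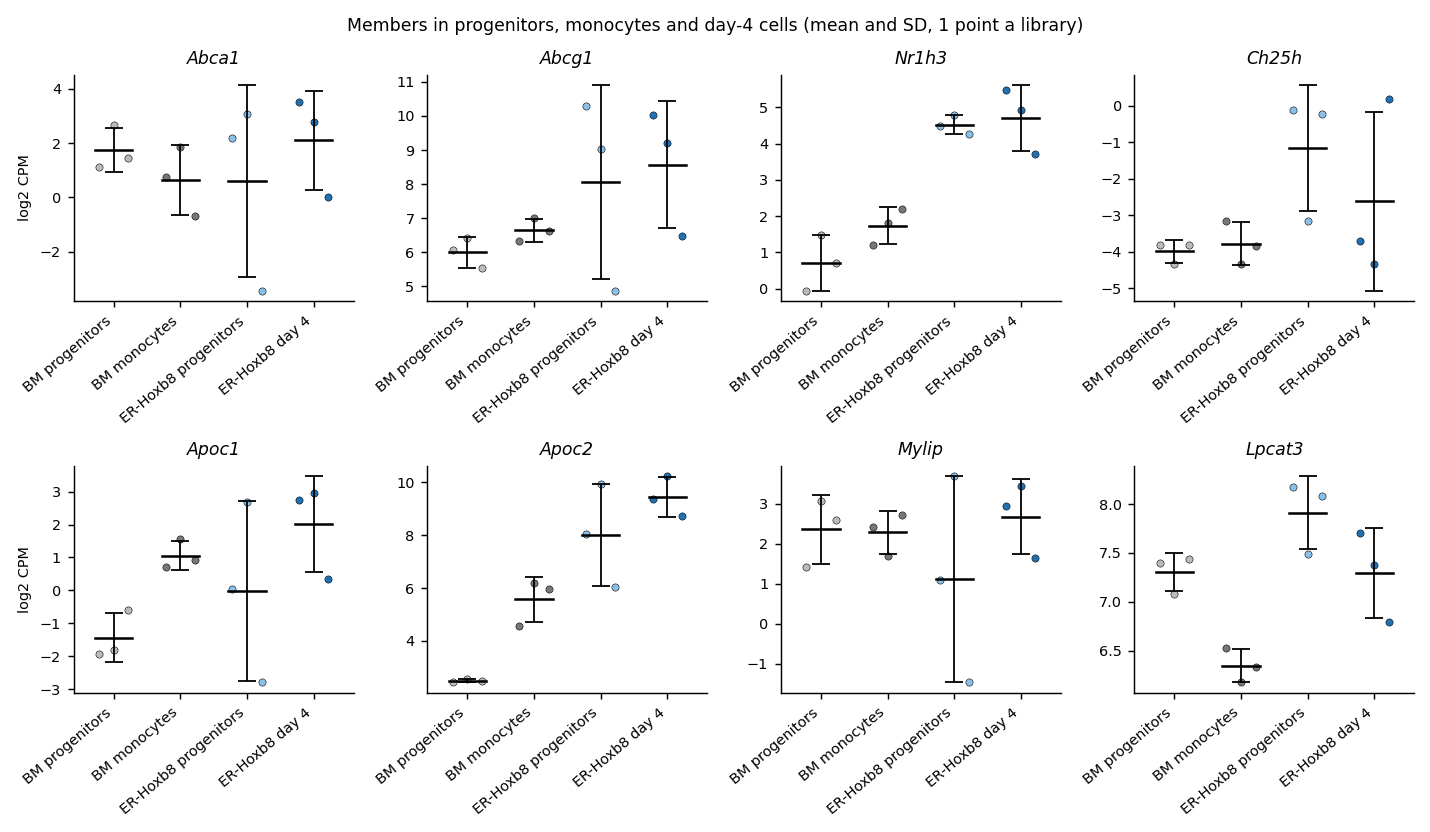
Each panel shows 1 member in BM progenitors, BM monocytes, ER-Hoxb8 progenitors and ER-Hoxb8 day-4 cells as log2 CPM (points, 1 library each; lines, mean and SD). Nr1h3 lies between 4.28 and 4.80 in ER-Hoxb8 progenitors and at or below 1.47 in BM progenitors, while Abca1, Abcg1, Apoc1 and Mylip spread widely within the ER-Hoxb8 groups.

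Among macrophages grown in culture, ER-Hoxb8 cells had more of both apolipoprotein genes than BMD cells and no measured Ch25h, where 1.51% of 10764 genes tested passed, 0.307% higher and 1.21% lower. Ch25h was at 5.29, 1.65 and 8.37 log2 CPM in BMD macrophages and at the lowest value, -3.62, -3.62 and -3.62, in all 3 ER-Hoxb8 macrophage libraries. It was thus at least 1306-fold lower by mean CPM, taking 3 counts per library as the upper limit of a count of 0, and at least 221.1-fold without BMD replicate 3. Apoc1 was at -1.87, -2.44 and -0.63 log2 CPM in BMD macrophages and 3.20, 3.11 and 4.53 in ER-Hoxb8 macrophages, with a wide gap between the groups (log2FC 5.26, SE 0.69). Ch25h and Apoc1 passed the filter only through the group in which they were high, so that their calls are not used. Without a filter Apoc1 passed (adjusted p = 0.0425) and Ch25h did not (log2FC -8.72, adjusted p = 0.0877). Apoc2, the lipase cofactor gene, was at 4.54, 5.45 and 5.50 and 9.22, 10.51 and 9.03 log2 CPM, also without overlap (log2FC 4.43, SE 0.46, adjusted p = 0.0101). Without any 1 BMD library, or with the replicate number as a block, neither Apoc1 (adjusted p = 0.102 with the block) nor Apoc2 (0.092) passed.

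The exporters, the receptor and the other targets did not pass between the 2 kinds of cultured macrophage. Abca1 was at 3.02, 3.35 and 2.53 log2 CPM in BMD and 4.61, 2.83 and 4.76 in ER-Hoxb8 macrophages, which overlapped. Abcg1 was at 7.77, 8.76 and 3.81 and 9.81, 8.88 and 11.55 log2 CPM, with every ER-Hoxb8 library higher but BMD replicate 3 far below its group (log2FC 3.30, adjusted p = 0.376; 1.82 without that library). This comparison was fitted on its 2 groups alone, and in a fit of all 5 groups of the set Abcg1 passed (adjusted p = 0.0291). Nr1h3 was at 5.89, 6.59 and 2.93 and 5.08, 4.75 and 5.52 log2 CPM, and again BMD replicate 3 was the lowest. Mylip was at 2.83, 4.15 and 2.16 and 3.20, 3.40 and 5.14 log2 CPM and Lpcat3 at 6.72, 6.62 and 6.23 and 7.38, 6.92 and 6.63, both with overlap.

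Of the receptor partners and further LXR target genes 1 of 14 higher, 3 lower, median -0.093 between cultured macrophages, beside 0.018 over all genes. Apoe, which codes for the main lipid carrier of the brain, was at 7.69, 11.95 and 10.73 log2 CPM in BMD and 1.07, 1.09 and 0.25 in ER-Hoxb8 macrophages (log2FC -9.32, SE 1.00, adjusted p = 0.0108). Smpdl3a, of the same list, was lower by a similar amount (log2FC -8.24, adjusted p = 0.000764). No gene passed for uptake (median -0.46), oxysterol enzymes and receptor (-0.36), synthesis (-0.61) or, among 6 tested, interferon (0.27).

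In the brain, bone marrow cells took on far higher levels of Abca1, Abcg1, Apoc1 and Mylip than BMD macrophages in culture, and a far lower level of Nr1h3. Of 8 members 4 were higher and 1 lower, where 30.6% of 12518 genes tested passed, 16.8% higher and 13.9% lower. For ER-Hoxb8 MLCs over ER-Hoxb8 macrophages 4 were higher (Abca1, Ch25h, Apoc1, Mylip) and 3 lower (Nr1h3, Apoc2, Lpcat3), where 34.8% of 12518 genes tested passed, 16.6% higher and 18.2% lower. Against microglia, BMD MLCs were higher in Abca1 and Apoc2 and lower in Lpcat3, where 20.5% of 12518 genes tested passed, 10.9% higher and 9.57% lower. ER-Hoxb8 MLCs were higher than microglia in Apoc1 and Apoc2 and lower in Mylip and Lpcat3, where 33.9% of 12518 genes tested passed, 15% higher and 18.9% lower. Between the 2 kinds of MLC, Apoc1 was higher and Abca1 lower in ER-Hoxb8 MLCs, where 15.2% of 12518 genes tested passed, 6.95% higher and 8.28% lower. These comparisons share groups, so they are not independent of each other. ER-Hoxb8 MLCs have the genotype label WT and ER-Hoxb8 macrophages Cas9 het, so that place and label changed together between them. The part of the source line in their changes from culture to brain, and in the tests against BMD cells, was not tested.

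Abca1, the exporter that loads lipid-poor apolipoproteins, separated cells from brain from cells in culture. BMD MLCs were at 8.66 to 9.30 (median 8.79) log2 CPM, ER-Hoxb8 MLCs at 5.52 to 9.03 (median 7.97) and microglia at 6.61 to 7.44 (median 7.07), against at most 4.76 in any cultured macrophage. Every brain library was above every macrophage library, and ER-Hoxb8 MLC replicate 6, at 5.52, was the lowest of them. Abca1 was higher in BMD MLCs than in BMD macrophages (log2FC 5.90, SE 0.47, adjusted p = 1.98e-09) and higher in ER-Hoxb8 MLCs than in ER-Hoxb8 macrophages (log2FC 3.56, SE 0.47, adjusted p = 2.74e-06). BMD MLCs also exceeded microglia without overlap (log2FC 1.80, SE 0.35, adjusted p = 0.000427). ER-Hoxb8 MLCs did not pass against microglia (log2FC 0.56, adjusted p = 0.235), though without replicate 6 they did (log2FC 0.99, adjusted p = 0.00761). They were below BMD MLCs (log2FC -1.23, SE 0.39, adjusted p = 0.0307), a call that was lost without any 1 of 5 of the 12 libraries. It was also lost without a filter (adjusted p = 0.052), with library weights (0.0587) and with only the groups compared (0.0855). With GFPHox libraries only the log2FC was -0.75 (adjusted p = 0.185).

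Abcg1, which exports cholesterol to HDL, followed a different order, with ER-Hoxb8 macrophages already at the level of the MLCs. BMD MLCs were at 9.76 to 10.98 (median 10.39) log2 CPM, ER-Hoxb8 MLCs at 9.41 to 11.17 (median 10.52) and microglia at 7.94 to 10.20 (median 8.61). BMD MLCs were above all 3 BMD macrophages (log2FC 3.60, SE 0.72, adjusted p = 0.000514), of which replicate 3, at 3.81, was the lowest (log2FC 2.12, adjusted p = 0.0146 without it). ER-Hoxb8 MLCs overlapped ER-Hoxb8 macrophages and did not pass (log2FC 0.28, adjusted p = 0.785). Against microglia neither BMD MLCs (log2FC 1.37, SE 0.53, adjusted p = 0.0717) nor ER-Hoxb8 MLCs (log2FC 1.35, SE 0.53, adjusted p = 0.0517) passed, and the ranges overlapped. Leaving out microglia replicate 4 or replicate 8 brought both comparisons past the threshold. The 2 kinds of MLC had nearly the same mean (log2FC -0.019, adjusted p = 0.988).

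Nr1h3, the receptor gene, ran the opposite way from Abca1. It was at -3.62 to 0.87 (median 0.06) log2 CPM in BMD MLCs, -3.62 to 4.53 (median 2.50) in ER-Hoxb8 MLCs and -3.02 to 1.30 (median -0.42) in microglia, with 1 BMD MLC and 1 ER-Hoxb8 MLC library at the lowest value. Cultured macrophages of both kinds lay at 2.93 or above. Nr1h3 was lower in BMD MLCs than in BMD macrophages without overlap (log2FC -5.62, SE 1.40, adjusted p = 0.00362). ER-Hoxb8 MLCs were lower than ER-Hoxb8 macrophages (log2FC -3.77, SE 1.40, adjusted p = 0.0385), but leaving out any 1 of 5 libraries ended that call. The 6 ER-Hoxb8 MLC libraries were at 2.09, -2.07, 4.53, -3.62, 2.92 and 4.26 log2 CPM in replicate order. They ran from the lowest value of the set to just below the ER-Hoxb8 macrophages. Neither MLC group passed against microglia (log2FC 0.10, adjusted p = 0.963 for BMD MLCs; log2FC 1.94, adjusted p = 0.159 for ER-Hoxb8 MLCs). Without ER-Hoxb8 MLC replicate 4 the second comparison passed (log2FC 2.93, adjusted p = 0.0181).

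Ch25h, the 25-hydroxycholesterol enzyme gene, was measured in all brain libraries. It was at 4.94 to 5.59 (median 5.42) log2 CPM in BMD MLCs, 1.46 to 7.39 (median 4.05) in ER-Hoxb8 MLCs and 1.30 to 5.63 (median 5.31) in microglia. The lowest microglia value was that of replicate 8, and the other 8 were at 4.75 or above. In ER-Hoxb8 MLCs all 6 libraries were above the ER-Hoxb8 macrophages, which had none, so that Ch25h was at least 420.8-fold higher by mean CPM (fitted log2FC 7.57, SE 1.11, adjusted p = 1.16e-05), or 152.4-fold without the highest MLC library. BMD MLCs overlapped BMD macrophages (log2FC 0.20, adjusted p = 0.909). The gain of Ch25h from culture to brain was larger in ER-Hoxb8 than in BMD cells by the test of that difference (difference of log2FC values 7.37, SE 1.57, adjusted p = 0.00715), where 3.28% of 12518 genes tested passed, 2.21% higher and 1.06% lower. With log2(CPM + 1) the difference was 4.02 and did not pass (adjusted p = 0.121), so that its size depends on the offset given to the ER-Hoxb8 macrophages at 0. None of the comparisons among MLCs and microglia passed for Ch25h in the main setting, with log2FC 0.50, adjusted p = 0.75 for BMD MLCs over microglia, log2FC -0.85, adjusted p = 0.463 for ER-Hoxb8 MLCs over microglia and log2FC -1.35, adjusted p = 0.342 for ER-Hoxb8 over BMD MLCs. ER-Hoxb8 MLCs were lower than BMD MLCs with GFPHox libraries only (-2.905, adjusted p = 0.0493), and with library weights lower than BMD MLCs (-2.08, adjusted p = 0.0281) and microglia (-2.03, adjusted p = 0.0154).

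Apoc1 was the only member that set every ER-Hoxb8 MLC library apart from all other libraries of this set. They were at 5.36 to 10.49 (median 8.95) log2 CPM, against 2.76 to 4.50 (median 3.53) in BMD MLCs and 1.74 to 3.78 (median 2.55) in microglia. Replicate 6 was again the lowest, at 5.36. Apoc1 was higher in ER-Hoxb8 MLCs than in microglia (log2FC 5.81, SE 0.55, adjusted p = 3.13e-09), than in BMD MLCs (log2FC 4.86, SE 0.60, adjusted p = 2.2e-06) and than in ER-Hoxb8 macrophages (log2FC 4.87, SE 0.74, adjusted p = 1.7e-05). BMD MLCs in turn were above BMD macrophages (log2FC 5.27, SE 0.74, adjusted p = 9.29e-06) and not set apart from microglia (log2FC 0.95, adjusted p = 0.254). The rise from culture to brain was not set apart between the 2 kinds of cell (difference of log2FC -0.40, adjusted p = 0.916).

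Apoc2 was lowest in microglia and highest in ER-Hoxb8 macrophages. It was at 5.06 to 6.83 (median 5.41) log2 CPM in BMD MLCs, 5.74 to 8.15 (median 7.35) in ER-Hoxb8 MLCs and -3.62 to 2.56 (median 1.89) in microglia, where replicate 8 was at the lowest value. Both MLC groups were above all microglia, with log2FC 4.60, SE 0.68, adjusted p = 1.06e-05 for BMD MLCs and log2FC 6.00, SE 0.68, adjusted p = 7.64e-08 for ER-Hoxb8 MLCs. ER-Hoxb8 MLCs were below ER-Hoxb8 macrophages (log2FC -2.52, SE 0.91, adjusted p = 0.033), a call lost without any 1 of 5 libraries. BMD MLCs overlapped BMD macrophages (log2FC 0.51, adjusted p = 0.698), and the 2 kinds of MLC overlapped each other (log2FC 1.39, adjusted p = 0.214). The deposited table sums reads to genes, and Apoc2 overlaps a read-through transcript with Apoc4 that has no row of its own.

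Mylip, the ubiquitin ligase gene, shared the order of culture and brain with Abca1 but was highest in microglia. It was at 6.75 to 7.53 (median 7.15) log2 CPM in microglia, 6.10 to 7.06 (median 6.41) in BMD MLCs and 5.03 to 6.68 (median 5.48) in ER-Hoxb8 MLCs. BMD MLCs were above all BMD macrophages (log2FC 3.43, SE 0.39, adjusted p = 5.47e-07). ER-Hoxb8 MLCs were higher than ER-Hoxb8 macrophages (log2FC 1.68, SE 0.39, adjusted p = 0.00204), although macrophage replicate 3, at 5.14, reached into their range. ER-Hoxb8 MLCs were below all microglia (log2FC -1.52, SE 0.29, adjusted p = 0.00019), while BMD MLCs were not set apart from them (log2FC -0.64, adjusted p = 0.136). Between the MLCs Mylip did not pass (log2FC -0.89, adjusted p = 0.0634). Without ER-Hoxb8 MLC replicate 2, the highest of its group, it passed as lower in ER-Hoxb8 MLCs (-1.10, adjusted p = 0.0191). It also passed in 3 of 8 other settings (limma, adjusted p from 0.0212 to 0.47 over the 8).

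Lpcat3 was highest in microglia, at 6.21 to 9.15 (median 8.67) log2 CPM, of which replicate 8 was the lowest and the only 1 within the range of the MLCs. BMD MLCs were at 5.94 to 6.95 (median 6.54) and ER-Hoxb8 MLCs at 4.36 to 6.96 (median 5.69) log2 CPM. Both were lower than microglia, with log2FC -1.78, SE 0.38, adjusted p = 0.000959 for BMD MLCs and log2FC -2.71, SE 0.38, adjusted p = 2.38e-06 for ER-Hoxb8 MLCs. Against their cultured counterparts, BMD MLCs had nearly the same mean (log2FC 0.0052, adjusted p = 0.996) and ER-Hoxb8 MLCs were lower (log2FC -1.38, SE 0.51, adjusted p = 0.036), a call lost without any 1 of 6 libraries, with quantile normalization (adjusted p = 0.102) and with GFPHox libraries only (-0.63, adjusted p = 0.392). The 2 kinds of MLC did not pass (log2FC -0.93, adjusted p = 0.131). ER-Hoxb8 MLCs passed as lower with WTHox libraries only (-1.68, adjusted p = 0.0132) and without their replicate 1 (-1.21, adjusted p = 0.0427). They also did with a replicate block (adjusted p = 0.0237). Lpcat3 overlaps Emg1 on the opposite strand, and whether the libraries were stranded was not stated.

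Ch25h was the only member whose change from culture to brain passed the test of a difference between ER-Hoxb8 and BMD cells in the main setting. With log2(CPM + 1), Abca1 and Apoc2 passed instead. Abca1 (log2FC -2.34, adjusted p = 0.0512), Abcg1 (log2FC -3.32, adjusted p = 0.0703) and Mylip (log2FC -1.75, adjusted p = 0.0849) had smaller gains in ER-Hoxb8 cells as differences of log2FC values, without passing. Left-out libraries moved them both ways: each passed without a single library (any 1 of 5 for Abca1, any 1 of 3 for Mylip, BMD macrophage replicate 2 for Abcg1), while without BMD macrophage replicate 3 Abcg1 was at -1.84 (adjusted p = 0.335) and without ER-Hoxb8 macrophage replicate 3 Mylip was at -1.14 (adjusted p = 0.349). Apoc2 (log2FC -3.03, adjusted p = 0.233), Lpcat3 (log2FC -1.38, adjusted p = 0.365) and Nr1h3 (log2FC 1.86, adjusted p = 0.741) did not pass either.

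**Figure D2:**
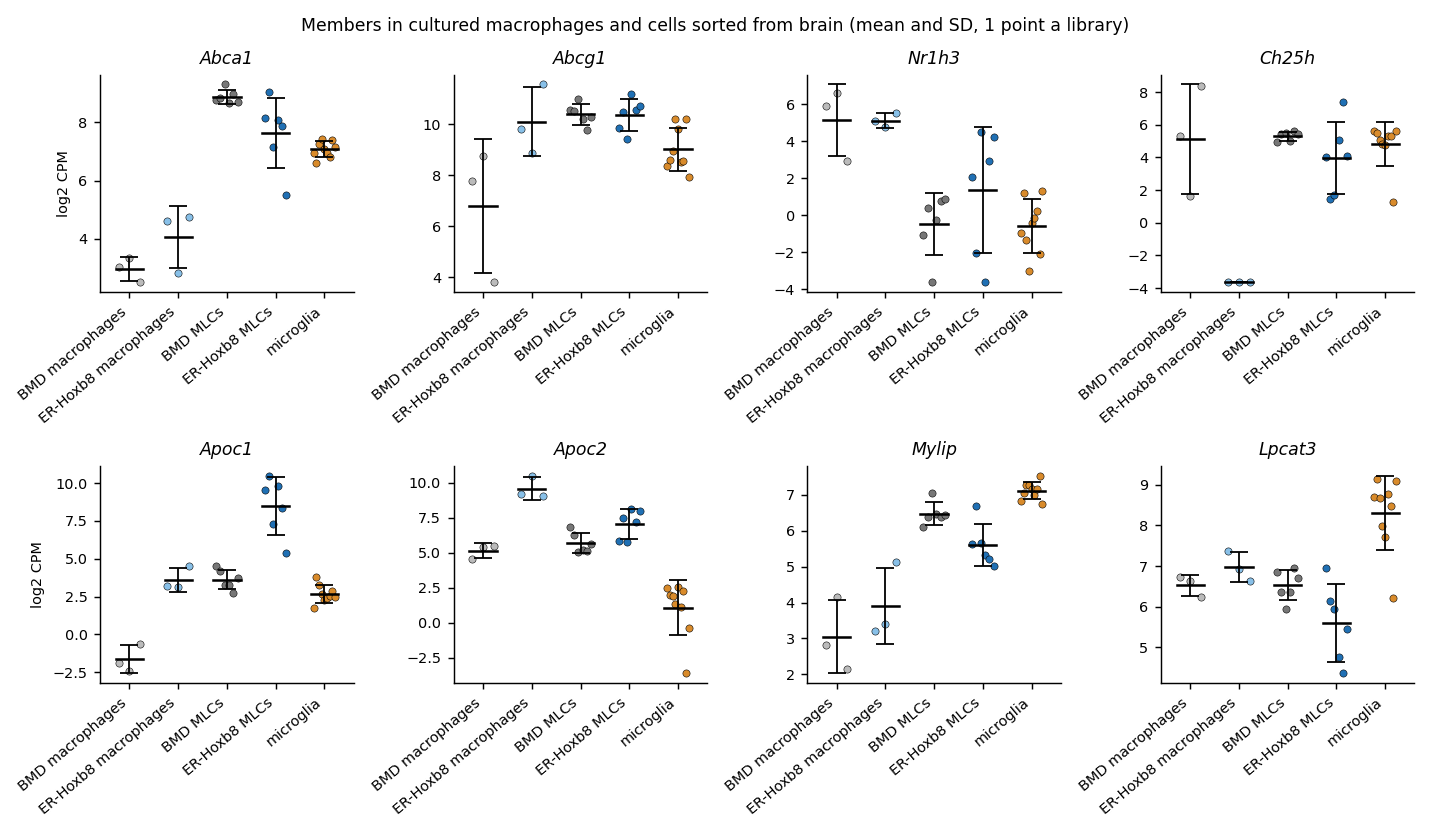
Each panel shows 1 member in BMD macrophages, ER-Hoxb8 macrophages, BMD MLCs, ER-Hoxb8 MLCs and microglia as log2 CPM (points, 1 library each; lines, mean and SD). All brain libraries lie at 5.52 or above for Abca1 while all cultured macrophages lie at or below 4.76, and the 3 ER-Hoxb8 macrophage libraries lie at the lowest value for Ch25h.

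Most genes of the sterol synthesis and uptake lists were lower in brain than in culture, in the direction opposite to Abca1 and Mylip. In BMD MLCs over BMD macrophages the sterol synthesis genes of the SREBP2 program gave 0 of 11 higher, 10 lower, median -3.13, beside -0.014 over all genes. Hmgcs1 was at 7.84, 7.91 and 6.42 log2 CPM in BMD macrophages and 4.56 to 5.19 (median 4.94) in BMD MLCs (log2FC -2.47, SE 0.34, adjusted p = 6.1e-06). The list for sterol uptake, release, storage and transport gave 1 of 9 higher, 6 lower, median -2.31, and that of oxysterol enzymes and receptor 2 of 5 higher, 3 lower, median -0.91, with Gpr183, the receptor of Ch25h-derived oxysterols on immune cells, higher (log2FC 3.13, adjusted p = 0.00245). In ER-Hoxb8 MLCs over ER-Hoxb8 macrophages synthesis gave 0 and 9 of 11 (-2.88), uptake 1 and 7 of 9 (-2.59) and the oxysterol list 2 and 1 of 5 (-0.58), beside -0.15 over all genes. Gpr183 was higher there too (log2FC 4.53, adjusted p = 4.71e-05).

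Among the receptor partners and further LXR target genes some rose with Abca1 and some fell. In BMD MLCs over BMD macrophages 4 of 13 higher, 2 lower, median -0.46, with Apoe (log2FC 4.47, SE 0.98, adjusted p = 0.00121) and Apoc4 (log2FC 7.11, adjusted p = 2.55e-05) up and Lpl, the lipase that Apoc2 activates, down (log2FC -6.05, SE 0.54, adjusted p = 1.17e-08). ER-Hoxb8 MLCs over ER-Hoxb8 macrophages gave 4 of 13 higher, 4 lower, median -1.32. There Apoe was at 10.68 to 12.81 (median 11.69) log2 CPM in the MLCs (log2FC 10.85, SE 0.98, adjusted p = 4.62e-09), and its gain was larger than in BMD cells by the test of the difference (log2FC 6.38, adjusted p = 0.00771). Pltp, which moves phospholipid between lipoproteins, was lower than in culture in ER-Hoxb8 MLCs (log2FC -3.25, adjusted p = 0.0155).

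Interferon-stimulated genes were higher in ER-Hoxb8 MLCs than in the 3 groups they were compared with, as was Apoc1. The list gave 8 and 0 of 8 (5.76) over microglia, 8 and 0 of 8 (3.67) over BMD MLCs and 8 and 0 of 8 (5.15) over ER-Hoxb8 macrophages. Isg15, a ubiquitin-like modifier, was at 6.87 to 9.36 (median 8.13) log2 CPM in ER-Hoxb8 MLCs, 2.52 to 3.69 (median 3.14) in BMD MLCs and 0.60 to 3.07 (median 2.50) in microglia. BMD MLCs gave 4 of 8 higher, 0 lower, median 1.53 over microglia and 4 of 8 higher, 0 lower, median 1.66 over BMD macrophages. For the interaction 4 of 8 were higher and none lower (median 3.71, beside -0.20 over all genes). Whether the interferon genes and Apoc1 or Ch25h depend on each other was not tested.

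The further lists were also compared between MLCs and microglia. For BMD MLCs over microglia the LXR list gave 3 and 1 of 13 (-0.043), uptake 3 and 1 of 9 (-0.34), the oxysterol list 1 and 1 of 5 (-0.22) and synthesis 0 and 3 of 11 (-0.80), beside 0.064 over all genes. For ER-Hoxb8 MLCs over microglia they gave 2 and 3 of 13 (-0.053), 3 and 1 of 9 (0.48), 2 and 2 of 5 (-0.59) and 0 and 4 of 11 (-0.87) in that order, beside -0.10. Between ER-Hoxb8 and BMD MLCs they gave 1 and 3 of 13 (-0.68), 2 and 0 of 9 (-0.68), 0 and 0 of 5 (0.014) and 0 and 0 of 11 (-0.14), beside -0.22, with Apoe lower in ER-Hoxb8 MLCs (log2FC -2.95, adjusted p = 0.0126). The border macrophage list, led by Mrc1, summed to 2252, 1492, 2145, 1755, 1827 and 2144 CPM in BMD MLCs, 873, 1002, 143, 719, 137 and 2.54 in ER-Hoxb8 MLCs and 9.93 to 101 in microglia, and their part in these differences was not tested.

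In the first gene edit experiment the Adar row itself was higher, not lower, in the cells labelled Adar1 KO once they were macrophages. Adar was at 4.20, 3.42 and 4.28 log2 CPM in NTC progenitors, 4.36, 4.23 and 4.24 in guide 1 progenitors, 5.73 and 5.67 in NTC macrophage replicates 1 and 3 and 6.96, 7.15 and 7.01 in guide 1 macrophages. It overlapped between the progenitors and was above every NTC library in the guide 1 macrophages (log2FC 1.34, SE 0.21, adjusted p = 0.000976). A count summed over a gene does not check an indel, so the edit was not checked here. Adar is itself a known interferon-stimulated gene.

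No member passed between guide 1 and NTC progenitors. With limma, 0.936% of 11008 genes tested passed, 0.282% higher and 0.654% lower, and 1 of 7 members had an unadjusted p below 0.05 (Apoc2), as did 725 genes (6.59%). Apoc2 was at 5.00, 4.98 and 4.56 log2 CPM in NTC and 5.15, 5.81 and 5.48 in guide 1 progenitors (log2FC 0.63, SE 0.27, adjusted p = 0.682), which did not overlap. Abca1 was near the bottom in both, at -1.93, -2.92 and -1.79 and -1.53, -2.32 and -2.49 log2 CPM, and Abcg1 was at 5.08, 3.84 and 3.56 and 4.27, 4.32 and 4.26. Nr1h3 was at 4.65, 4.45 and 4.42 and 4.77, 4.57 and 4.47 log2 CPM, Apoc1 at -0.99, -1.26 and -1.09 and -0.59, -0.81 and -0.69, Mylip at 0.36, 0.36 and 0.90 and 0.42, 0.82 and 0.55, and Lpcat3 at 7.02, 7.40 and 7.20 and 7.25, 7.47 and 7.45. Ch25h was at the lowest value in all 6. No gene of the 5 further lists passed, with medians of 0.30 (LXR list), 0.026 (uptake), 0.050 (oxysterol), -0.0028 (synthesis) and -0.076 (interferon), beside -0.015 over all genes.

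Guide 1 macrophages held less Abca1, Apoc1, Apoc2, Mylip and Lpcat3 than NTC macrophages. Of 7 members 5 were lower and none higher, where 21.8% of 11008 genes tested passed, 14.5% higher and 7.29% lower. NTC macrophage replicate 2 was scaled apart and is given beside the others without entering the tests. Including replicate 2 as deposited left every call the same. Its library name begins with NTC2 and ends in Redo. The names of the NTC progenitors also begin with NTC2, and those of the tested NTC macrophages with NTC alone. What these names mean for the control line was not stated, and its part in the steps from NTC progenitors was not tested.

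Abca1 was at 5.97 and 6.13 log2 CPM in NTC macrophages (replicate 2, 5.58) and 2.51, 2.96 and 2.29 in guide 1 macrophages. The groups were far apart (log2FC -3.46, SE 0.41, adjusted p = 0.000111). Abcg1 was at 9.53 and 9.39 (replicate 2, 9.14) and 8.98, 9.25 and 8.94 log2 CPM, lower without overlap among the tested libraries but not past the threshold (log2FC -0.40, SE 0.33, adjusted p = 0.426). Nr1h3 was at 4.28 and 4.62 (replicate 2, 4.46) and 4.11, 4.94 and 5.02 log2 CPM, with overlap (log2FC 0.24, adjusted p = 0.523). Ch25h, not tested, was at -2.45 and -2.92 (replicate 2, -1.45) and -2.47, -2.37 and -2.90 log2 CPM, close to the lowest value.

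Apoc1 was at 6.42 and 6.07 log2 CPM in NTC macrophages (replicate 2, 5.52) and 3.72, 2.62 and 2.40 in guide 1 macrophages, all lower (log2FC -3.33, SE 0.35, adjusted p = 4.53e-05). Apoc2 was at 11.77 and 11.47 (replicate 2, 11.34) and 9.25, 8.14 and 8.31 log2 CPM, again all lower (log2FC -3.05, SE 0.30, adjusted p = 2.36e-05). Mylip was at 4.18 and 4.61 (replicate 2, 4.24) and 3.25, 2.65 and 2.64 log2 CPM (log2FC -1.55, SE 0.28, adjusted p = 0.00253). Lpcat3 was at 6.70 and 6.79 (replicate 2, 6.68) and 6.18, 6.18 and 6.15 log2 CPM (log2FC -0.57, SE 0.12, adjusted p = 0.00652), a small gap with tight groups. None of the 5 calls was lost when a library was left out.

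From progenitor to macrophage the exporters and apolipoprotein genes rose in both NTC and guide 1 cells. In NTC cells 71.8% of 11008 genes tested passed, 33.1% higher and 38.7% lower, and in guide 1 cells 71.3% of 11008 genes tested passed, 34.1% higher and 37.1% lower. Abca1 and Apoc1 passed the filter only through macrophages, and passed in both kinds of cell without a filter too. Abca1 rose in NTC (log2FC 8.26, SE 0.41, adjusted p = 9.36e-09) and in guide 1 cells (log2FC 4.70, SE 0.37, adjusted p = 3.71e-07). Abcg1 rose in both, with log2FC 5.30, SE 0.33, adjusted p = 6.4e-08 in NTC and log2FC 4.77, SE 0.30, adjusted p = 5.22e-08 in guide 1 cells. Nr1h3 was not set apart in either (log2FC -0.055, adjusted p = 0.848 and log2FC 0.084, adjusted p = 0.741). The rise of Apoc1 was 7.36 in NTC and 3.61 in guide 1 cells, that of Apoc2 6.78 and 3.09, and that of Mylip 3.86 and 2.25. Lpcat3 fell in both, with log2FC values of -0.46 and -1.22.

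Tested as a difference between these 2 changes, 5 of 7 members were lower and none higher, where 13.6% of 11008 genes tested passed, 9.9% higher and 3.72% lower. The difference of log2FC values was -3.56 for Abca1 (adjusted p = 0.0013), -3.75 for Apoc1 (adjusted p = 0.000301) and -3.69 for Apoc2 (adjusted p = 0.000106). For Mylip it was -1.60 (adjusted p = 0.0168), lost without NTC macrophage replicate 3, and for Lpcat3 -0.76 (adjusted p = 0.0107). Abcg1 (log2FC -0.52, adjusted p = 0.476) and Nr1h3 (log2FC 0.14, adjusted p = 0.818) did not pass. Without NTC progenitor replicate 1, Abcg1 did (-0.98, adjusted p = 0.0058).

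**Figure D3:**
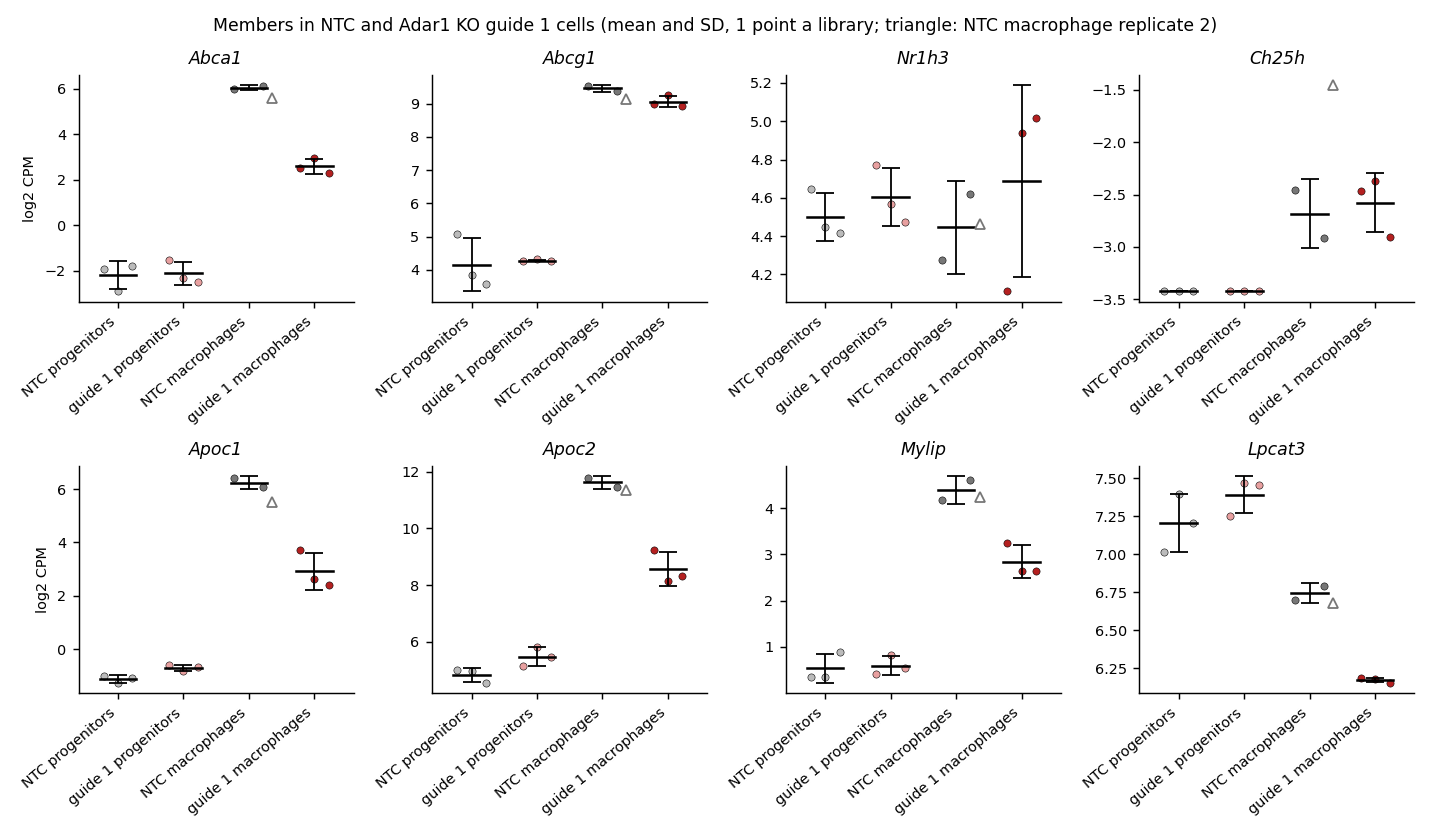
Each panel shows 1 member in NTC and guide 1 progenitors and macrophages as log2 CPM (points, 1 library each; lines, mean and SD; triangle, NTC macrophage replicate 2, which was scaled apart). Guide 1 macrophages lie below NTC macrophages for Abca1, Apoc1, Apoc2, Mylip and Lpcat3.

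In guide 1 macrophages 7 of 12 genes of the LXR list were lower with Abca1, while the 8 interferon-stimulated genes tested were higher. The receptor partners and further LXR target genes gave 0 of 12 higher, 7 lower, median -1.11, beside 0.047 over all genes. Among them were Pltp (log2FC -3.71, SE 0.34, adjusted p = 1.64e-05), Scd1, which makes monounsaturated fatty acids (log2FC -3.02, adjusted p = 0.00573), and Mertk, a receptor for dead cells (log2FC -1.52, adjusted p = 0.0185). The uptake list gave 2 of 9 higher, 1 lower, median 0.087 and the oxysterol list 0 of 5 higher, 2 lower, median -0.18, in which Cyp27a1, the enzyme of 27-hydroxycholesterol, was lower (log2FC -1.76, adjusted p = 0.000173), as was Gpr183 (log2FC -1.43, adjusted p = 0.00794). Synthesis gave 3 of 11 higher, 0 lower, median 0.13, a count that turned with quantile normalization to 2 higher and 3 lower. The interferon-stimulated genes gave 8 of 8 higher, 0 lower, median 5.76. Isg15 was at 3.50 and 3.25 log2 CPM in NTC and 8.79, 8.19 and 7.23 in guide 1 macrophages.

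For the difference between the 2 changes the LXR list gave 0 and 4 of 12 (-1.14), uptake 1 and 1 of 9 (-0.0034), the oxysterol list 0 and 2 of 5 (0.030), synthesis 2 and 0 of 11 (0.17) and interferon 8 and 0 of 8 (5.42), beside 0.077 over all genes. From progenitor to macrophage in NTC cells the 5 lists gave 7 and 1 of 12 (1.76), 6 and 3 of 9 (2.55), 4 and 1 of 5 (1.74), 0 and 10 of 11 (-2.11) and 7 and 1 of 8 (3.51), beside -0.080. In guide 1 cells they gave 7 and 4 of 12 (1.15), 6 and 3 of 9 (2.11), 4 and 1 of 5 (1.47), 0 and 11 of 11 (-1.98) and 8 and 0 of 8 (9.75), beside -0.057. The border macrophage list summed to 768, 505 and 628 CPM in NTC macrophages (replicates 1 to 3) and 78.8, 59.7 and 90.3 in guide 1 macrophages. Proliferation markers summed to 20.5, 19.7 and 18.2 and 110.5, 111 and 113 CPM, and endothelium markers, led by Flt1, to 37.1, 30.8 and 48.1 and 141, 101 and 104. The part of these differences in the member results was not tested.

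The guide 2 cells had no NTC libraries in their set, so that only the step from progenitor to macrophage could be compared. There 81.3% of 10698 genes tested passed, 39.7% higher and 41.6% lower. Adar was at 4.35, 4.56 and 4.36 log2 CPM in guide 2 progenitors and 7.02, 7.00, 7.02, 7.03 and 6.99 in guide 2 macrophages (log2FC 2.59, SE 0.057, adjusted p = 3.87e-11). Abca1 was at -0.73, -0.01 and -2.52 log2 CPM in the progenitors and 3.55, 3.21, 2.71, 2.66 and 2.88 in the macrophages (log2FC 4.09, SE 0.48). It passed the filter only through the macrophages, and passed without a filter too. Abcg1 was at 4.83, 4.88 and 4.99 and 9.88, 9.80, 9.80, 9.84 and 9.87 log2 CPM, with very little spread among the macrophages (log2FC 4.94, SE 0.043, adjusted p = 1.32e-13). Nr1h3 was at 4.57, 4.27 and 4.57 and 5.63, 5.47, 5.42, 5.54 and 5.60 log2 CPM, and the rise passed here (log2FC 1.06, SE 0.086, adjusted p = 9.6e-07).

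Apoc1, not tested with guide 2, was at -3.01, -2.41 and -2.64 log2 CPM in progenitors and -1.24, -1.17, -1.59, -1.17 and -0.35 in macrophages. Apoc2 was at 4.37, 4.07 and 4.16 and 7.20, 7.51, 7.51, 7.24 and 7.62 log2 CPM, higher without overlap (log2FC 3.21, SE 0.11, adjusted p = 8.81e-10). Mylip was at 0.87, 1.28 and 1.16 and 3.48, 3.72, 3.73, 3.55 and 3.17 log2 CPM (log2FC 2.43, SE 0.17, adjusted p = 2.34e-07). Lpcat3 was at 8.09, 8.05 and 8.03 and 6.47, 6.38, 6.48, 6.46 and 6.50 log2 CPM, lower in every macrophage (log2FC -1.60, SE 0.040, adjusted p = 9.71e-11). Ch25h was above the lowest value in 1 of the 8 libraries, macrophage replicate 3, at -3.01. The LXR list gave 6 and 4 of 11 (0.93), uptake 6 and 3 of 9 (2.67), the oxysterol list 4 and 1 of 5 (1.87), synthesis 0 and 11 of 11 (-1.53) and interferon 8 and 0 of 8 (8.88), beside -0.031 over all genes.

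In the baricitinib experiment, untreated guide 1 macrophages held more Abca1, Abcg1 and Apoc1 than NTC macrophages, the reverse of the first experiment for Abca1 and Apoc1. Of 7 members 3 were higher and none lower, where 25.3% of 11152 genes tested passed, 11.5% higher and 13.7% lower. Adar was at 5.12, 4.94 and 4.69 log2 CPM in NTC and 7.42, 6.52 and 6.37 in guide 1 macrophages (log2FC 1.85, SE 0.48, adjusted p = 0.0051), again higher in the edited cells. The interferon-stimulated genes gave 8 of 8 higher, 0 lower, median 5.75, beside -0.024 over all genes, and Isg15 was at 2.72, 2.68 and 2.94 log2 CPM in NTC and 6.74, 7.07 and 7.15 in guide 1 macrophages. These libraries were scaled and sequenced apart from the first experiment, and the difference between the 2 experiments was not tested.

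Abca1 was at 0.43, 0.64 and -0.49 log2 CPM in untreated NTC and 3.24, 3.07 and 2.71 in untreated guide 1 macrophages. The guide 1 cells were all higher (log2FC 2.81, SE 0.64, adjusted p = 0.00163). Abcg1 was at 6.86, 6.58 and 6.87 and 8.52, 8.38 and 8.55 log2 CPM, with a clear gap (log2FC 1.72, SE 0.34, adjusted p = 0.000472). Apoc1 was at 0.71, 0.41 and 0.36 and 2.62, 2.96 and 2.93 log2 CPM, also with a gap (log2FC 2.34, SE 0.54, adjusted p = 0.00209). Nr1h3 was at 4.42, 4.26 and 4.49 and 4.84, 4.44 and 4.40 log2 CPM (log2FC 0.17, adjusted p = 0.74), Apoc2 at 8.71, 8.64 and 8.69 and 8.16, 9.15 and 9.36 (log2FC 0.21, adjusted p = 0.601), and Mylip at 3.17, 2.39 and 2.22 and 2.76, 3.04 and 2.80 (log2FC 0.27, adjusted p = 0.484). Those 3 overlapped between the groups. Lpcat3 was at 6.54, 6.48 and 6.48 and 6.25, 6.15 and 6.30 log2 CPM, lower without overlap but not past the threshold (log2FC -0.27, SE 0.13, adjusted p = 0.119). Ch25h was at the lowest value in 32 of the 33 libraries, and at -2.21 in untreated guide 1 replicate 3.

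At the 2 low doses guide 1 cells again held more Abcg1 and Apoc1. At 0.0006 uM no other member passed, 2 of 7 members, where 29% of 11152 genes tested passed, 13.5% higher and 15.5% lower. Apoc2 passed there without guide 1 replicate 1 (log2FC 0.81, adjusted p = 0.021) and Mylip without NTC replicate 1 (log2FC 0.79, adjusted p = 0.0424). At 0.016 uM Abca1, Abcg1, Apoc1 and Apoc2 were higher, 4 of 7, where 32.2% of 11152 genes tested passed, 16.6% higher and 15.7% lower. Abca1 was at 1.43, 1.40 and 2.66 log2 CPM in NTC and 3.42, 3.20 and 2.88 in guide 1 cells at 0.0006 uM (log2FC 1.34, adjusted p = 0.121) and at 1.27, 1.36, 1.85 and 0.84 and 3.78, 3.23 and 2.60 at 0.016 uM (log2FC 1.88, SE 0.60, adjusted p = 0.0161). Guide 1 cells were higher without overlap at both doses, and the second call was lost without guide 1 replicate 1. Abcg1 was at 6.47, 6.93 and 6.70 and 8.92, 8.47 and 8.61 log2 CPM at 0.0006 uM (log2FC 1.96, SE 0.34, adjusted p = 7.69e-05) and at 6.58, 6.90, 6.85 and 6.86 and 8.23, 8.80 and 8.45 at 0.016 uM (log2FC 1.70, SE 0.32, adjusted p = 0.00016).

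Apoc1 was at 0.87, 1.15 and -0.10 log2 CPM in NTC and 2.53, 3.61 and 3.30 in guide 1 cells at 0.0006 uM (log2FC 2.51, SE 0.54, adjusted p = 0.00086) and at 0.63, 0.51, 0.60 and 1.35 and 3.42, 3.44 and 2.99 at 0.016 uM (log2FC 2.51, SE 0.51, adjusted p = 0.000354). Apoc2 was at 8.63, 8.88 and 8.72 and 8.63, 9.70 and 9.42 log2 CPM at 0.0006 uM (log2FC 0.50, adjusted p = 0.147) and at 8.51, 8.64, 8.71 and 8.63 and 9.46, 9.81 and 9.24 at 0.016 uM (log2FC 0.88, SE 0.24, adjusted p = 0.00538). For Apoc1 the groups stood apart at both doses and for Apoc2 at the second. Nr1h3 was at 4.15, 3.96 and 3.85 and 4.38, 4.29 and 4.19, then 4.34, 3.59, 3.97 and 4.27 and 4.16, 4.29 and 4.11 log2 CPM, without passing (adjusted p = 0.521 at 0.0006 uM). Mylip was at 2.83, 2.25 and 2.44 and 3.20, 2.98 and 3.23, then 2.02, 2.53, 2.90 and 2.21 and 2.65, 3.06 and 2.95 log2 CPM, above every NTC library at the first dose only and without passing (log2FC 0.63, adjusted p = 0.0681 and log2FC 0.48, adjusted p = 0.138). Lpcat3 was at 6.50, 6.20 and 6.20 and 6.23, 6.20 and 5.87, then 6.51, 6.37, 6.35 and 6.46 and 6.13, 6.16 and 6.17 log2 CPM (log2FC -0.20, adjusted p = 0.26 and log2FC -0.27, adjusted p = 0.0767).

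At 0.4 uM the 3 guide 1 libraries no longer lay together. Adar was at 4.12, 7.38 and 4.21 log2 CPM and Isg15 at 1.80, 10.58 and 3.37, so that replicate 2 kept high values of both and the other 2 did not. Apoc2 alone was higher than in NTC cells, 1 of 7 members, where 13.5% of 11152 genes tested passed, 7.68% higher and 5.77% lower. Abca1 was at 0.33, 2.67, 1.50 and 1.42 log2 CPM in NTC and 1.20, 4.29 and 0.87 in guide 1 cells, and Abcg1 at 6.02, 6.31, 6.09 and 6.19 and 6.27, 8.64 and 6.23. In both, replicate 2 was far above the other guide 1 libraries. Nr1h3 was at 3.95, 3.71, 3.90 and 3.67 and 2.66, 4.67 and 2.74 log2 CPM, Apoc1 at -0.39, 1.65, -0.12 and -1.10 and 0.42, 2.68 and -0.10, and Apoc2 at 8.27, 8.43, 8.27 and 8.23 and 9.06, 9.95 and 9.08 (log2FC 1.07, SE 0.24, adjusted p = 0.00357). Apoc2 lost its call without replicate 2 (log2FC 0.77, adjusted p = 0.0544).

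Single libraries also decided 3 members that did not pass at 0.4 uM. Without guide 1 replicate 2, Nr1h3 was lower in guide 1 cells (log2FC -1.11, adjusted p = 0.00101), against log2FC -0.45, adjusted p = 0.34 with it. Abcg1 did not pass with all libraries (log2FC 0.89, SE 0.32, adjusted p = 0.063) and passed without guide 1 replicate 1 (1.28, adjusted p = 0.00776) or replicate 3 (1.30, adjusted p = 0.00789). Apoc1 passed without NTC replicate 2 (1.54, adjusted p = 0.0365). Mylip was at 2.21, 2.90, 2.31 and 2.05 and 2.28, 3.27 and 2.79 log2 CPM and Lpcat3 at 6.61, 6.49, 6.56 and 6.26 and 6.60, 6.15 and 6.45, both with overlap.

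At 10 uM, the highest dose, the members split. Abcg1, Apoc2 and Mylip were higher and Nr1h3 lower in guide 1 cells, 4 of 7 members, where 45.3% of 11152 genes tested passed, 21.5% higher and 23.9% lower. Adar was now lower in the edited cells, at 1.55, 2.15, 2.91 and 2.03 log2 CPM against 3.70, 3.64 and 3.22 (log2FC -1.36, SE 0.45, adjusted p = 0.0146), and the interferon-stimulated genes gave 0 of 8 higher, 0 lower, median 0.40, beside 0.0020 over all genes. Nr1h3 was at 2.44, 2.18 and 2.49 log2 CPM in NTC and 1.86, 0.76, 1.31 and 1.46 in guide 1 cells, all lower (log2FC -1.02, SE 0.30, adjusted p = 0.0066). Abcg1 was at 5.60, 6.06 and 5.91 and 6.95, 7.45, 7.00 and 6.79 log2 CPM (log2FC 1.20, SE 0.32, adjusted p = 0.00331), Apoc2 at 7.52, 7.59 and 7.68 and 9.62, 9.64, 8.92 and 9.29 (log2FC 1.77, SE 0.24, adjusted p = 8.67e-07) and Mylip at 2.09, 2.40 and 2.30 and 3.37, 3.42, 3.47 and 3.40 (log2FC 1.15, SE 0.24, adjusted p = 0.000304). Each of these 3 was higher in every guide 1 library. Abca1 was at 1.62, 2.45 and 2.39 and 0.26, 2.09, 1.74 and 2.10 log2 CPM (log2FC -0.61, adjusted p = 0.429), now with overlap. Apoc1 was at -0.57, 0.41 and 0.06 and 1.07, 1.21, 0.95 and 1.06 log2 CPM, higher without passing (log2FC 1.11, adjusted p = 0.0785), and Lpcat3 at 6.46, 6.57 and 6.31 and 6.08, 6.06, 6.50 and 6.12 (log2FC -0.25, adjusted p = 0.0791). Lpcat3 passed as lower without guide 1 replicate 3 (-0.36, adjusted p = 0.0113).

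**Figure D4:**
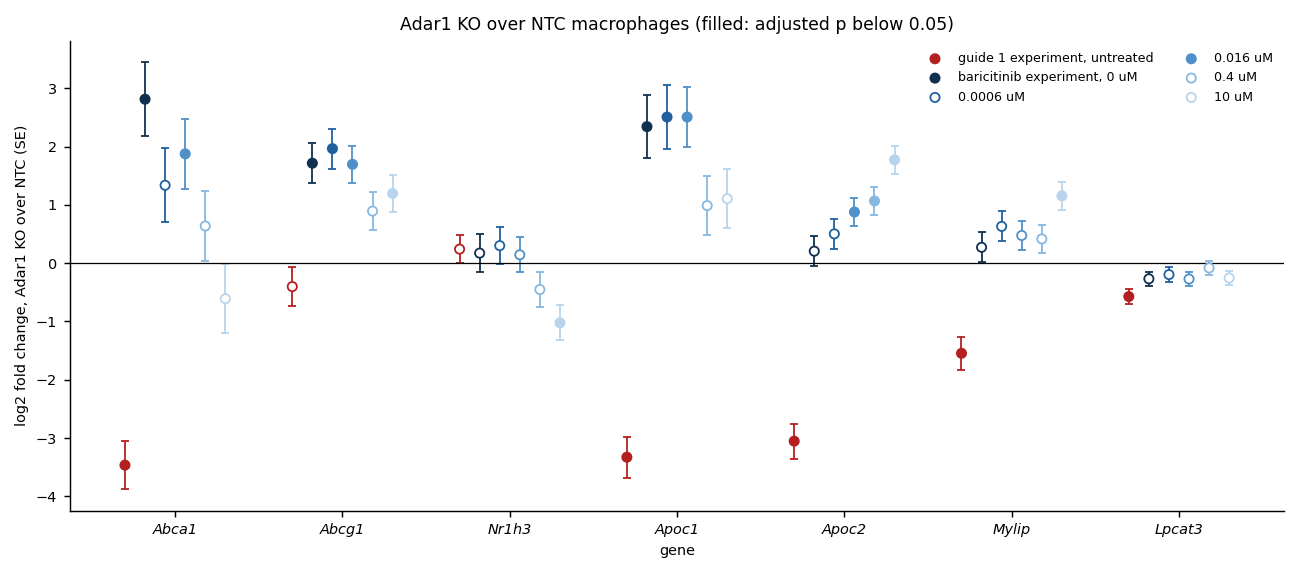
Points give the log2FC of guide 1 over NTC macrophages for the 7 members tested (bars, SE; filled, adjusted p below 0.05). They cover the first experiment and the 5 doses of baricitinib. Abca1 lies at -3.46 in the macrophages of the first experiment and at 2.81 without drug in the second.

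Within NTC cells, 10 uM baricitinib lowered the receptor gene and Apoc2 and raised Abca1. Of 7 members 1 was higher and 2 lower than at 0 uM, where 13.8% of 11152 genes tested passed, 5.88% higher and 7.94% lower. Nr1h3 fell from 4.42, 4.26 and 4.49 to 2.44, 2.18 and 2.49 log2 CPM (log2FC -2.02, SE 0.32, adjusted p = 0.000124), and Apoc2 from 8.71, 8.64 and 8.69 to 7.52, 7.59 and 7.68 (log2FC -1.08, SE 0.26, adjusted p = 0.00566). Both groups were well apart. Abca1 was higher at 10 uM (log2FC 1.96, SE 0.64, adjusted p = 0.0391), but lost its call without any 1 of the 6 libraries. Abcg1 was at 6.86, 6.58 and 6.87 without and 5.60, 6.06 and 5.91 log2 CPM with the drug, lower in every library without passing (log2FC -0.91, SE 0.34, adjusted p = 0.0746). Apoc1 (log2FC -0.53, adjusted p = 0.569), Mylip (log2FC -0.33, adjusted p = 0.425) and Lpcat3 (log2FC -0.053, adjusted p = 0.829) did not pass.

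At 0.4 uM no member passed against 0 uM in NTC cells. With limma, 0.00897% of 11152 genes tested passed, 0% higher and 0.00897% lower, and 1 of 7 members (Abca1, log2FC 1.29, SE 0.60, adjusted p = 0.888) had an unadjusted p below 0.05, as did 598 genes (5.36%). None of the 5 further lists held a gene that passed, with medians of -0.23 (LXR list), -0.21 (uptake), -0.092 (oxysterol), -0.029 (synthesis) and -1.93 (interferon), beside -0.011 over all genes.

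Within guide 1 cells, 10 uM baricitinib lowered Abca1, Abcg1, Nr1h3 and Apoc1 and raised Mylip. These are 5 of 7 members against a broad background, where 65.8% of 11152 genes tested passed, 33.9% higher and 31.9% lower. Nr1h3 fell from 4.84, 4.44 and 4.40 to 1.86, 0.76, 1.31 and 1.46 log2 CPM, the largest change of a member in this comparison (log2FC -3.21, SE 0.30, adjusted p = 4.08e-10). Abcg1 fell from 8.52, 8.38 and 8.55 to 6.95, 7.45, 7.00 and 6.79 (log2FC -1.43, SE 0.32, adjusted p = 0.000312) and Apoc1 from 2.62, 2.96 and 2.93 to 1.07, 1.21, 0.95 and 1.06 (log2FC -1.76, SE 0.51, adjusted p = 0.00348), neither with overlap. Abca1 fell too, to 0.26, 2.09, 1.74 and 2.10 log2 CPM (log2FC -1.46, SE 0.60, adjusted p = 0.0332), a call lost without any 1 of 3 of the 7 libraries. Mylip rose slightly (log2FC 0.55, SE 0.24, adjusted p = 0.0476), and 6 of the 7 libraries could each end that call. Apoc2 (log2FC 0.48, adjusted p = 0.0771) and Lpcat3 (log2FC -0.039, adjusted p = 0.786) did not pass. Adar fell over the same doses (log2FC -4.61, SE 0.45, adjusted p = 8.68e-10).

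At 0.4 uM, Abcg1, Nr1h3 and Apoc1 were lower than at 0 uM in guide 1 cells, 3 of 7 members, where 26.6% of 11152 genes tested passed, 15.1% higher and 11.5% lower. All 3 overlapped the untreated cells through replicate 2 alone. The values were log2FC -1.44, adjusted p = 0.00273 for Abcg1, log2FC -1.21, adjusted p = 0.0063 for Nr1h3 and log2FC -1.83, adjusted p = 0.0134 for Apoc1. Nr1h3 and Apoc1 lost their calls without replicate 1 or replicate 3, and with only these 2 groups in the fit none of the 3 passed. Abca1 did not pass (log2FC -0.89, adjusted p = 0.327) but did without replicate 2 (-1.97, adjusted p = 0.00592).

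Whether 10 uM changed guide 1 cells differently from NTC cells was tested for each member. The difference passed for 4 of 7, 2 higher and 2 lower, where 39.5% of 11152 genes tested passed, 19.5% higher and 20% lower. Abca1 rose in NTC and fell in guide 1 cells, a difference of log2FC values of -3.42 (SE 0.87, adjusted p = 0.00284). Apoc2 fell in NTC cells and did not pass in guide 1 cells, a difference of 1.57 (SE 0.35, adjusted p = 0.000857). For Nr1h3, which fell in both, the difference was -1.20 (adjusted p = 0.0319), and for Mylip 0.88 (adjusted p = 0.049). The last 2 calls were lost without any 1 of 5 and of 10 of the 13 libraries. Abcg1 (log2FC -0.52, adjusted p = 0.402), Apoc1 (log2FC -1.24, adjusted p = 0.194) and Lpcat3 (log2FC 0.014, adjusted p = 0.956) did not pass.

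**Figure D5:**
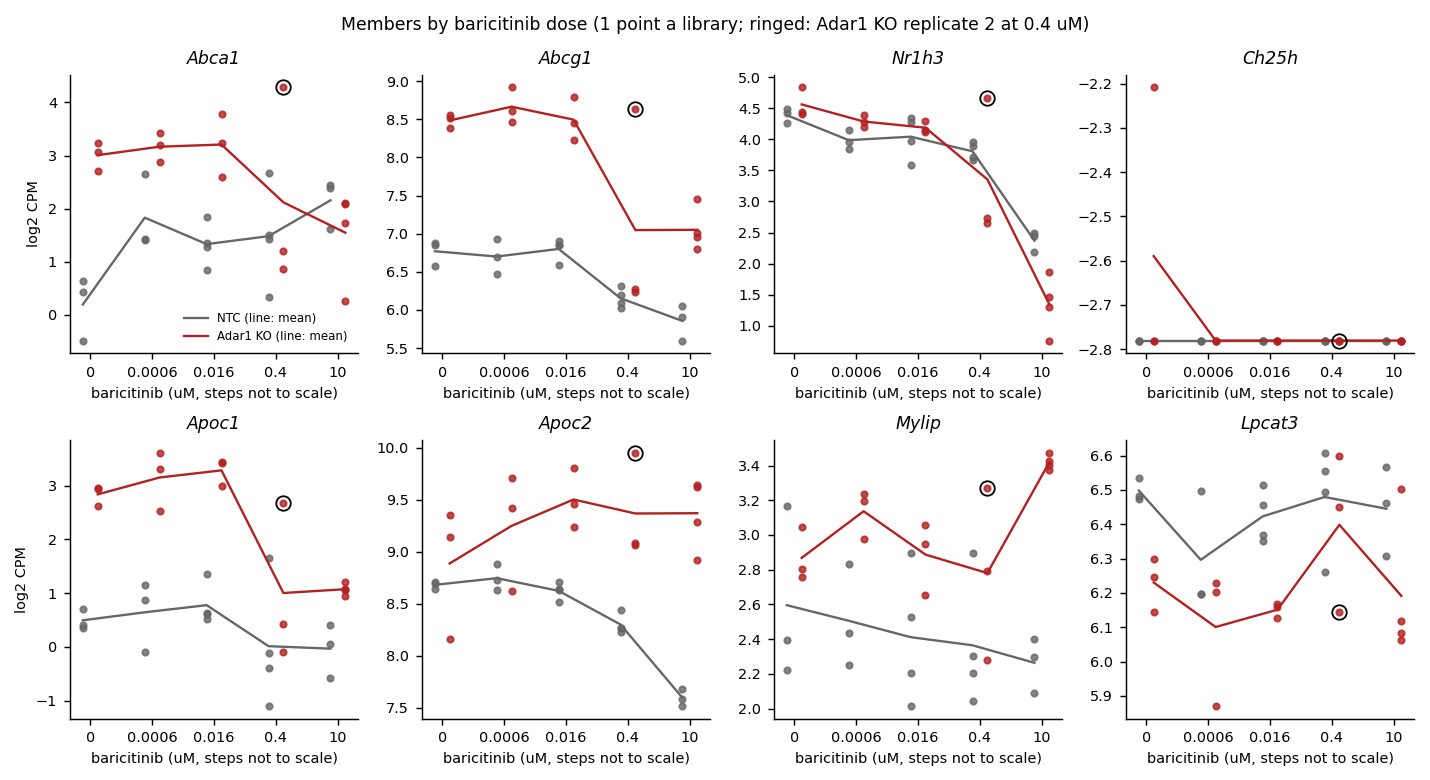
Each panel shows 1 member against the dose of baricitinib (uM, as in the sample titles) as log2 CPM for NTC and guide 1 macrophages (points, 1 library each; lines, means; ring, guide 1 replicate 2 at 0.4 uM). Nr1h3 falls to between 2.18 and 2.49 in NTC and between 0.76 and 1.86 in guide 1 cells at 10 uM.

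The wider sterol lists also held genes that passed with the dose. Over all genes 65.8% passed from 0 to 10 uM in guide 1 cells and 13.8% in NTC cells. The share was 39.5% for their difference and 26.6% from 0 to 0.4 uM in guide 1 cells. In guide 1 cells from 0 to 10 uM the LXR list gave 1 and 8 of 12 (-1.47), uptake 1 and 8 of 9 (-1.66), the oxysterol list 2 and 2 of 5 (-0.091), synthesis 6 and 4 of 11 (0.54) and interferon 0 and 7 of 8 (-8.71), beside 0.052 over all genes. Nr1h2, the gene of the second liver X receptor, fell from 7.04, 6.90 and 7.05 to 4.38, 3.93, 5.40 and 4.82 log2 CPM (log2FC -2.36, SE 0.19, adjusted p = 3.01e-11). Gpr183, the oxysterol receptor gene, rose from 3.14, 4.32 and 4.52 to 7.12, 7.66, 7.68 and 7.36 log2 CPM (log2FC 3.46, SE 0.33, adjusted p = 7.54e-10). In NTC cells Gpr183 rose as well, from 4.34, 4.93 and 4.57 to 6.42, 6.86 and 5.94 (log2FC 1.79, SE 0.36, adjusted p = 0.00141). There the 5 lists gave 1 and 7 of 12 (-0.66), 1 and 3 of 9 (-0.61), 1 and 0 of 5 (0.077), 2 and 0 of 11 (0.18) and 0 and 1 of 8 (-2.43), beside -0.0046. For the difference between guide 1 and NTC cells they gave 2 and 5 of 12 (-0.11), 0 and 7 of 9 (-0.92), 2 and 2 of 5 (-0.17), 3 and 4 of 11 (-0.094) and 0 and 7 of 8 (-5.68), beside 0.064. From 0 to 0.4 uM in guide 1 cells they gave 3 and 5 of 12 (-0.59), 0 and 3 of 9 (-0.46), 1 and 1 of 5 (-0.21), 2 and 2 of 11 (0.21) and 0 and 5 of 8 (-3.92), beside 0.033.

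Between guide 1 and NTC cells genes of the LXR list went both ways at every dose. At 0 uM it gave 2 of 12 higher, 3 lower, median 0.28, with Apoc4 higher (log2FC 2.79, adjusted p = 2.43e-07) and Pltp (log2FC -2.70, adjusted p = 1.92e-08) and Cd5l (log2FC -5.56, adjusted p = 1.62e-11), a secreted scavenger receptor protein of macrophages, lower. The uptake, oxysterol and synthesis lists gave 3 and 2 of 9 (0.36), 0 and 0 of 5 (0.076) and 0 and 4 of 11 (-0.15). At 0.0006 uM the 5 lists gave 2 and 3 of 12 (-0.0081), 4 and 2 of 9 (0.16), 0 and 0 of 5 (0.12), 0 and 1 of 11 (-0.28) and, for interferon, 7 and 0 of 8 (5.55), beside -0.0024 over all genes. At 0.016 uM they gave 2 and 3 of 12 (0.057), 3 and 2 of 9 (-0.14), 0 and 0 of 5 (-0.14), 0 and 3 of 11 (-0.38) and 8 and 0 of 8 (7.26), beside 0.00083. At 0.4 uM they gave 1 and 3 of 12 (-0.23), 1 and 2 of 9 (-0.026), 0 and 0 of 5 (0.0094), 0 and 0 of 11 (-0.18) and 8 and 0 of 8 (4.32), beside 0.0055. At 10 uM the first 4 gave 3 and 6 of 12 (-0.48), 1 and 6 of 9 (-0.60), 2 and 2 of 5 (-0.012) and 1 and 5 of 11 (-0.26).

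Proliferation markers moved with dose and genotype beside the members. They summed to 314, 463 and 389 CPM in NTC and 75.6, 93.8 and 110.5 in guide 1 cells without drug, and to 918, 1186 and 753 and 1423, 2245, 1775 and 1625 at 10 uM. At 0.4 uM the guide 1 libraries had 575, 102 and 509 CPM of proliferation markers, with the lowest sum in replicate 2. Their part in the member results was not tested.

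Over the 27 libraries of macrophages, MLCs and microglia, the gene most like each member in level was named by Pearson's r over 12518 genes, as a description of points that share groups. They were Rnf145 (r 0.9291) for Abca1, Sat1 (0.847) for Abcg1, Litaf (0.9097) for Nr1h3 and B3galnt1 (0.8395) for Ch25h. For the other members they were C4b (0.8707) for Apoc1, Ifitm2 (0.9252) for Apoc2, Olfr645 (0.9464) for Mylip and Cmtm6 (0.9393) for Lpcat3. Among the members themselves, Abca1 ran with Mylip (r 0.7858) and against Nr1h3 (r -0.7375).

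Over the 33 baricitinib libraries and 11152 genes the nearest were Mndal (r 0.8128) for Abca1, Ptafr (0.9573) for Abcg1 and BC022687 (0.9615) for Nr1h3. For Apoc1 they were Treml2 (0.9299) and then Abcg1 (0.9237), another member. Gpr18 (0.8464) was nearest to Apoc2, Cd47 (0.8282) to Mylip and Hdac3 (0.8671) to Lpcat3.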

How the data were processed

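Per the labels and the paper, the authors ran FastQC, fastp, kallisto 0.46.0, tximport and edgeR, and deposited log2 CPM with TMM scaling. The table was used as deposited, without 1 unnamed row. CPM for filters, marker sums and bounds were rebuilt from each set's lowest value with a prior count of 2, and depth was estimated from the steps between values. It limits the floor, 3 counts per library, which covers counting error only.

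All tests are from limma 3.58.1 in R 4.3.3 (1 mean per group, eBayes with trend), run within sets that share one lowest value, and p-values were adjusted by Benjamini-Hochberg over every gene of the fit. The fits were checked on simulated data. Alternatives and leaving out each library are in the closing section. Libraries with the same replicate number, after removal of group means, correlated above 0.1 in every pair in 3 comparisons (day-4 cells over ER-Hoxb8 progenitors, r 0.226 to 0.427; guide 1 over NTC progenitors, r 0.158 to 0.349; guide 1 over NTC macrophages, 2 pairs, r 0.153 to 0.158), and a block for the number changed no call there.

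Named genes are the members, the genes of the lists and, per member, the gene of highest Pearson's r. Results for 2 single genes of the lists are not reported here. Members and lists were chosen with earlier results of these data known. Tables and figures were made with Python 3.11.15, numpy 2.4.6, pandas 2.3.3 and matplotlib 3.10.9.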

Additional observations from a re-analysis of the deposited data

Results flagged for a closer look

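In 8 of 53 pairs of a member and a group of 4 to 9 libraries, 1 library lay far from the others. The measure was the gap to its neighbour over the group's range. Chance alone gives about 1 in 20 where values differ. Ch25h in guide 2 macrophages ties at the lowest value, so that this rate does not hold there. Flags within 1 library are not independent. The flags in microglia replicate 8 were Ch25h (1.30 log2 CPM), Apoc2 (-3.62) and Lpcat3 (6.21). In NTC macrophages at 0.016 uM baricitinib they were Abcg1 in replicate 1 (6.58) and Apoc1 in replicate 4 (1.35). The others were Ch25h in guide 2 macrophage replicate 3 (-3.01), Mylip in ER-Hoxb8 MLC replicate 2 (6.68) and Lpcat3 in guide 1 replicate 3 at 10 uM (6.50).

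A change differed between groups by its own test in 10 cases, given as differences of log2FC. From culture to brain, Ch25h rose in ER-Hoxb8 cells and was not set apart in BMD cells (7.37). All ER-Hoxb8 macrophages had a Ch25h count of 0, and this difference did not pass with log2(CPM + 1). From progenitor to macrophage, guide 1 cells gained less than NTC cells in Abca1 (-3.56), Apoc1 (-3.75), Apoc2 (-3.69) and Mylip (-1.60) and lost more Lpcat3 (-0.76). Between 0 and 10 uM baricitinib, guide 1 cells differed from NTC cells in Abca1 (-3.42), Nr1h3 (-1.20), Apoc2 (1.57) and Mylip (0.88).

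Guide 1 over NTC macrophages went opposite ways in the 2 experiments for Abca1 and Apoc1, and for Abcg1 among the tested libraries only: it did not pass in the first, where NTC replicate 2 (9.14) lay within the guide 1 range. In the first experiment and in the untreated cells of the second, log2FC was -3.46 and 2.81 for Abca1, -0.40 and 1.72 for Abcg1, and -3.33 and 2.34 for Apoc1. These differences between experiments were not tested.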

How the results depend on the processing

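Of 2886 pairs of a member's change and an alternative setting or left-out library, 2547 kept their direction and their side of the threshold, 76 turned direction without passing in either setting, 151 no longer passed and 112 newly passed. No change that passed in either setting turned. Counts of members that passed moved as follows, and the cause was not tested unless named. A limit of 2 on log2FC, the study's own, lowers counts by construction: BM monocytes over BM progenitors 2 to 1, BMD MLCs over microglia 3 to 1, ER-Hoxb8 over BMD MLCs 2 to 1, guide 1 over NTC macrophages 5 to 3 and their interaction 5 to 3. Guide 1 over NTC went from 2 to 1 at 0.0006 uM, 4 to 1 at 0.016, 1 to 0 at 0.4 and 4 to 0 at 10 uM. For 10 over 0 uM it went from 3 to 1 in NTC, 5 to 1 in guide 1 cells and 4 to 1 for their difference, and for 0.4 over 0 uM in guide 1 cells from 3 to 0.

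Without a filter, with more genes tested, the count went from 2 to 1 for BM monocytes over BM progenitors, 7 to 4 for ER-Hoxb8 MLCs over ER-Hoxb8 macrophages, 2 to 1 for ER-Hoxb8 over BMD MLCs, 5 to 3 for 10 over 0 uM in guide 1 cells and 4 to 2 for the dose interaction. Library weights gave 4 (from 2) for monocytes, 6 (from 3) and 7 (from 4) for BMD and ER-Hoxb8 MLCs over microglia, 5 (from 1) for the brain interaction, 2 (from 1) for guide 1 over NTC at 0.4 uM, 1 (from 0) for 0.4 over 0 uM in NTC and 5 (from 3) in guide 1 cells. Quantile normalization gave 4 for monocytes and 3 for the brain interaction, and log2(CPM + 1) gave 2 for the latter. With only the groups compared in the fit the count was 5 for BMD MLCs over microglia, 2 for the brain interaction, 0 for guide 1 over NTC at 0.4 uM, 1 for 0.4 over 0 uM in NTC and 0 in guide 1 cells. With GFPHox libraries only the brain interaction had 3, and with WTHox libraries only it had 3 and ER-Hoxb8 over BMD MLCs 4. Without replicate 3 of both ER-Hoxb8 progenitors and day-4 cells, an alternative added after the data were seen, ER-Hoxb8 over BM progenitors had 4 (from 2).

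As a replicate block, the replicate number gave 4 (from 2) for ER-Hoxb8 over BMD MLCs and 2 (from 1) for the brain interaction, where the libraries share only a number. In all other comparisons whose count is used the count stayed within 1.5 times.

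Leaving out each library in turn gave these lowest and highest counts: monocytes 0 to 1, ER-Hoxb8 over BM progenitors 2 to 4, day-4 cells 0 to 3, BMD MLCs over macrophages 5 to 5, ER-Hoxb8 MLCs over macrophages 4 to 6, BMD MLCs over microglia 3 to 4, ER-Hoxb8 MLCs over microglia 4 to 5, between MLCs 1 to 3 and brain interaction 1 to 3. In the guide experiments they were 0 to 0 for progenitors, 5 to 5 for macrophages and 4 to 6 for the interaction. Across the doses guide 1 over NTC gave 3 to 3, 2 to 3, 3 to 4, 1 to 2 and 4 to 5. For 10 over 0 uM it was 2 to 2 in NTC, 3 to 5 in guide 1 cells and 2 to 4 for the difference, and for 0.4 over 0 uM 0 to 0 and 1 to 4. Where an arm is left with 1 library, it is assumed to vary like the others.

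Quantile normalization moved the split of all called genes to 55.06% higher (from 44.39%) for ER-Hoxb8 over BM progenitors and to 48.57% (from 66.6%) for guide 1 over NTC macrophages, so that small changes depend on scaling. For ER-Hoxb8 over BMD macrophages library weights gave 58.77% higher of 2464 called genes (from 20.25% of 163), and a replicate block called 0. For the brain interaction library weights gave 41.43% higher (from 67.56%) and WTHox libraries only 46.03%. With only the groups compared in the fit, called genes fell from 1500 to 223 for guide 1 over NTC at 0.4 uM. For 0.4 over 0 uM in guide 1 cells they fell from 2963 to 392. With 2 to 4 libraries in most groups and depths down to 6.06 M, genes near the lowest value, such as Ch25h outside the brain set, are not measured well.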
